A study of Mus musculus with 6 samples.

Results

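The beta 2 integrins and a group of their ligands were followed in B16 tumours, in cells that were pulled out by CD8a microbeads on day 7 or day 14 after implantation. The 8 genes were chosen by name out of 26754 genes in the deposited tables. They are the alpha chains Itgal, Itgam, Itgax and Itgad, the common beta chain Itgb2, and the ligand genes Icam1, Icam2 and F11r. B16 is a mouse melanoma line, and it was grown under the skin of female C57BL/6J mice that were 6 to 8 weeks old, with the genotype given as C57. The labels give the groups no agent, only the day of collection, with 3 libraries on day 7 and 3 on day 14. The title of the series names LFA-1, IL-2/STAT5 and anti-PD-1 therapy, so the comparison asks how the LFA-1 chains stood in early and later tumours. Nothing in the labels ties each replicate to its own mouse, and p-values therefore measure the spread between these samples only, which may be technical.

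Each beta 2 integrin is a pair of 1 alpha chain and the beta chain CD18, the product of Itgb2. Itgal encodes CD11a, and with CD18 it forms LFA-1, which lymphocytes use to hold on to target cells and to vessel walls. Itgam encodes CD11b of Mac-1, the integrin of macrophages, neutrophils and natural killer cells that also binds complement and fibrinogen. Itgax encodes CD11c, a chain of dendritic cells and many tissue macrophages, and Itgad encodes CD11d of macrophage subsets. An alpha chain without CD18 does not reach the cell surface, so these chains draw on a common partner. Icam1 is an inducible ligand of LFA-1 and Mac-1, Icam2 a constitutive ligand of LFA-1 on endothelium and leukocytes, and F11r encodes JAM-A, a junction protein that LFA-1 can bind.

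Values are RPKM, reads scaled to gene length and to the reads in genes of each library, so levels can be set side by side between genes. Libraries held 6523019 to 9313078 reads in genes on day 7 and 11385106 to 13316522 on day 14, with both mates of a pair counted. The first 2 replicates of day 7 were close to sampling noise from each other (chi-square ratio of 1.11 as the median and 1.63 as the mean, where 1 is sampling alone), while the median was 40.9 and 44.4 against replicate 3 and 4.05 to 4.43 within day 14. Their mean was counted as 1 sample, which leaves n = 2 on day 7 and n = 3 on day 14. The label of CD8+ T cells was checked against markers fixed in a list. Summed over 15 T cell genes the level was 587 to 599 RPKM on day 7 and 156 to 166 on day 14, over 12 macrophage genes 330 to 434 and 675 to 692, and over 8 melanocyte genes 5714 to 5932 and 10457 to 11471. Single genes carried much of these sums. Lyz2 made 186 to 232 and then 376 to 392 RPKM of the macrophage sum. Dct made 4431 to 4726 and then 8577 to 9681 RPKM of the melanocyte sum. Mitf alone of the 8 melanocyte genes had a lower mean on day 14, at 86.7 and then 78.8 RPKM. All 15 T cell genes had reads on both days, but the libraries were thus not of T cells alone. In bulk RNA, fewer cells of a type and less RNA per cell cannot be told apart.

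The alpha chain genes Itgal, Itgam, Itgax and Itgad lie on the plus strand of chromosome 7 of GRCm38, and the 3 myeloid ones are direct neighbours. Itgal spans 127296260 to 127335138, Itgam 128062640 to 128128160, Itgax 128129547 to 128150657 and Itgad 128154376 to 128223816, so that 1387 bases separate the end of Itgam from the start of Itgax and 3719 bases separate Itgax from Itgad. Itgb2 lies on chromosome 10 (77530252 to 77565708, plus strand), Icam1 on chromosome 9 (21015985 to 21028817, plus strand), Icam2 on chromosome 11 (106377656 to 106388075, minus strand) and F11r on chromosome 1 (171437535 to 171464603, plus strand). All 8 are protein-coding in GENCODE M21, and 7 have the same ends there. The Itgam model of the files runs beyond the GENCODE end at 128118491 and holds a small gene model on its strand over 347 exonic bases. Exons of Icam1 overlap a gene model on the opposite strand over 511 bases, and that model had at most 6.72 RPKM. Itgad shares exonic bases with opposite-strand genes, at most 388 with 1 of them, 4931431B13Rik, which had up to 9.39 RPKM. Transcripts of Itgax and Itgad share 384 stretches of 50 bases, of 4790 in Itgax. Reads there may fit both genes, and how such reads were counted is not known here. No stretch of 50 bases is common to any other pair among the members.

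The start regions of Itgam, Itgax and Icam1 are shown because the first pair are the neighbouring myeloid chains set against Itgal, and Icam1 is the inducible ligand. The windows run from 250 bases before to 50 bases after the start site in RefSeq (GRCm38.p6, plus strand), which held 4 of the 8 members, F11r being the fourth. Capitals mark matches on either strand to GAGGAA (the core that the myeloid factor PU.1 reads), TTCNNNGAA (the palindrome of STAT factors), GGAANTTCC (of the NF-kB family) and TGANTCA (of AP-1).
Itgam, chr7:128062390-128062689: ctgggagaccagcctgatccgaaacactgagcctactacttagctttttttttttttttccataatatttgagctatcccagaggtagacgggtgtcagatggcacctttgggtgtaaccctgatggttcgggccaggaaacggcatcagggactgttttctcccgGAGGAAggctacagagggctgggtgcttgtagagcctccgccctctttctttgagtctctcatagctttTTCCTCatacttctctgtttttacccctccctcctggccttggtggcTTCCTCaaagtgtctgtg
Itgax, chr7:128129300-128129599: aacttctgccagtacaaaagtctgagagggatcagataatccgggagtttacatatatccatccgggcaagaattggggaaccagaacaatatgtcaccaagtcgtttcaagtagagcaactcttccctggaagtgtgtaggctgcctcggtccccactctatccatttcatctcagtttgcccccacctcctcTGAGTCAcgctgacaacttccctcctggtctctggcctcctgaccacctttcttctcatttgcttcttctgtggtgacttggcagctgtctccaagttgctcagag
Icam1, chr9:21015690-21015989: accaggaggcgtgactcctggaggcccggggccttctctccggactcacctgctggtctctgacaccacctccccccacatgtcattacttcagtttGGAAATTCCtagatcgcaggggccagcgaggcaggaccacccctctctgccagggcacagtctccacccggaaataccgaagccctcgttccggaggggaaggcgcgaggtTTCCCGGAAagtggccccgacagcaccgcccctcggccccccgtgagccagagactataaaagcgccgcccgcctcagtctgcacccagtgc
The Itgam window holds GAGGAA 3 times, once as written at position -84 from the start site and on the other strand at -15 and 32. The Itgax window holds TGANTCA at -56 and none of the other motifs. The Icam1 window holds GGAANTTCC at -153 and TTCNNNGAA at -42, and the F11r window holds GAGGAA at -140 and TGANTCA at -109. No matches overlap in these windows, although GAGGAA and GGAANTTCC have letters in common. Among 32851 windows of the same length, 28.3% hold GAGGAA, 8.3% TTCNNNGAA, 0.928% GGAANTTCC and 7.81% TGANTCA. A match is a description of the letters and not a site of binding.

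Itgal, the lymphoid chain, fell. It stood at 44.4, 47.9 and 36.4 RPKM in day 7 replicates 1, 2 and 3, and at 11.2, 12.4 and 13.4 in day 14 replicates 1, 2 and 3. All day 14 libraries lay below all day 7 libraries, and day 7 replicate 3 was the lowest of its day. The mean went from 41.3 ± 6.9 (SD, n = 2) to 12.3 ± 1.1 (SD, n = 3), 3.35-fold lower, and between 835 and 2932 reads stood behind each value. On the log2(RPKM + 1) scale it changed by -1.66 (SE 0.30, adjusted p = 0.0117 in limma), and only 1.05% of the 6691 tested genes had a lower value. Leaving out day 7 replicate 3 gave -1.83 with an adjusted p of 0.0662, so the call ended without that library.

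Itgam, the Mac-1 chain, had the opposite order of days. Its level was 39.4, 32.8 and 37.5 RPKM in the day 7 replicates and 51.9, 52.5 and 53.6 in the day 14 replicates. The days did not overlap, and the day 14 libraries were close to each other. The early mean of 36.8 ± 1.0 (SD, n = 2) and the later one of 52.7 ± 0.87 (SD, n = 3) were 1.43-fold apart. The log2 change was 0.51 (SE 0.22) with a 95% interval of 0.027 to 0.99, which gave no call (limma adjusted p = 0.223). Without precision weights, in reads tested with limma-voom and with 6 libraries counted singly it was called, at adjusted p = 0.0342, 0.00523 and 0.0192. These settings called 1011, 2145 and 1591 genes in all, against 354 in the main test. Leaving out day 7 replicate 3 gave a log2 change of 0.53 for Itgam.

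Itgax, the CD11c chain, had no clear direction because day 7 was split. Replicates 1 and 2 of day 7 held 19.1 and 20.3 RPKM and replicate 3 held 8.71, while the day 14 replicates held 8.43, 10.9 and 8.29. Day 7 replicate 3 lay inside the range of day 14. The means were 14.2 ± 7.8 (SD, n = 2) and 9.21 ± 1.5 (SD, n = 3), with a log2 change of -0.48, an SE of 0.42 and a 95% interval of -1.42 to 0.45 (limma adjusted p = 0.559). Without day 7 replicate 3 the value was -1.03 (adjusted p = 0.4). Some dendritic cell genes split the same way within day 7, with Xcr1 at 4.06, 3.18 and 0 RPKM and Siglech at 5.04, 4.82 and 0 in replicates 1, 2 and 3. Clec9a, another dendritic cell gene, split the other way at 0, 0 and 2.61. Summed over the 9 dendritic cell markers the level was 13.8 to 35.2 RPKM on day 7 and 15.6 to 17.4 on day 14, with no marker at 0 in a whole day, and their part in the Itgax values was not tested.

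Itgad was at the limit of detection. It had 2, 0 and 44 reads in the day 7 replicates and 0, 13 and 0 in the day 14 replicates, which is 0.0556, 0 and 1.5 RPKM and then 0, 0.229 and 0. Only day 7 replicate 3 was above 1 RPKM, and the gene was not tested.

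Itgb2, the beta chain that all 4 alpha chains need, was the most abundant member in every library. It stood at 136, 132 and 190 RPKM on day 7 and at 87.7, 91.7 and 94.7 on day 14. The days did not overlap, with day 7 replicate 3 the highest library. Itgb2 fell from 162 ± 39 (SD, n = 2) to 91.4 ± 3.5 (SD, n = 3), which is -0.80 on the log2 scale (SE 0.18, adjusted p = 0.0351 in limma). The call ended without day 7 replicate 3 (-0.55, adjusted p = 0.301), without day 14 replicate 1 (-0.77, adjusted p = 0.0696) and without day 14 replicate 2 (-0.80, adjusted p = 0.0655).

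Of the 8 members, 5 passed the filter of a mean of 20 CPM, and 2 of these 5 fell and none rose, where 2.68% of all tested genes fell and 2.62% rose. The days did not overlap in 4 of the 5, against 49.3% of all tested genes. The median log2 change of the 5 was -0.80, and that of all tested genes 0.16. Across all genes the counts were 179 lower and 175 higher, and with median-of-ratios scaling 240 and 75, with TMM scaling 223 and 81.

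**Figure D1:**
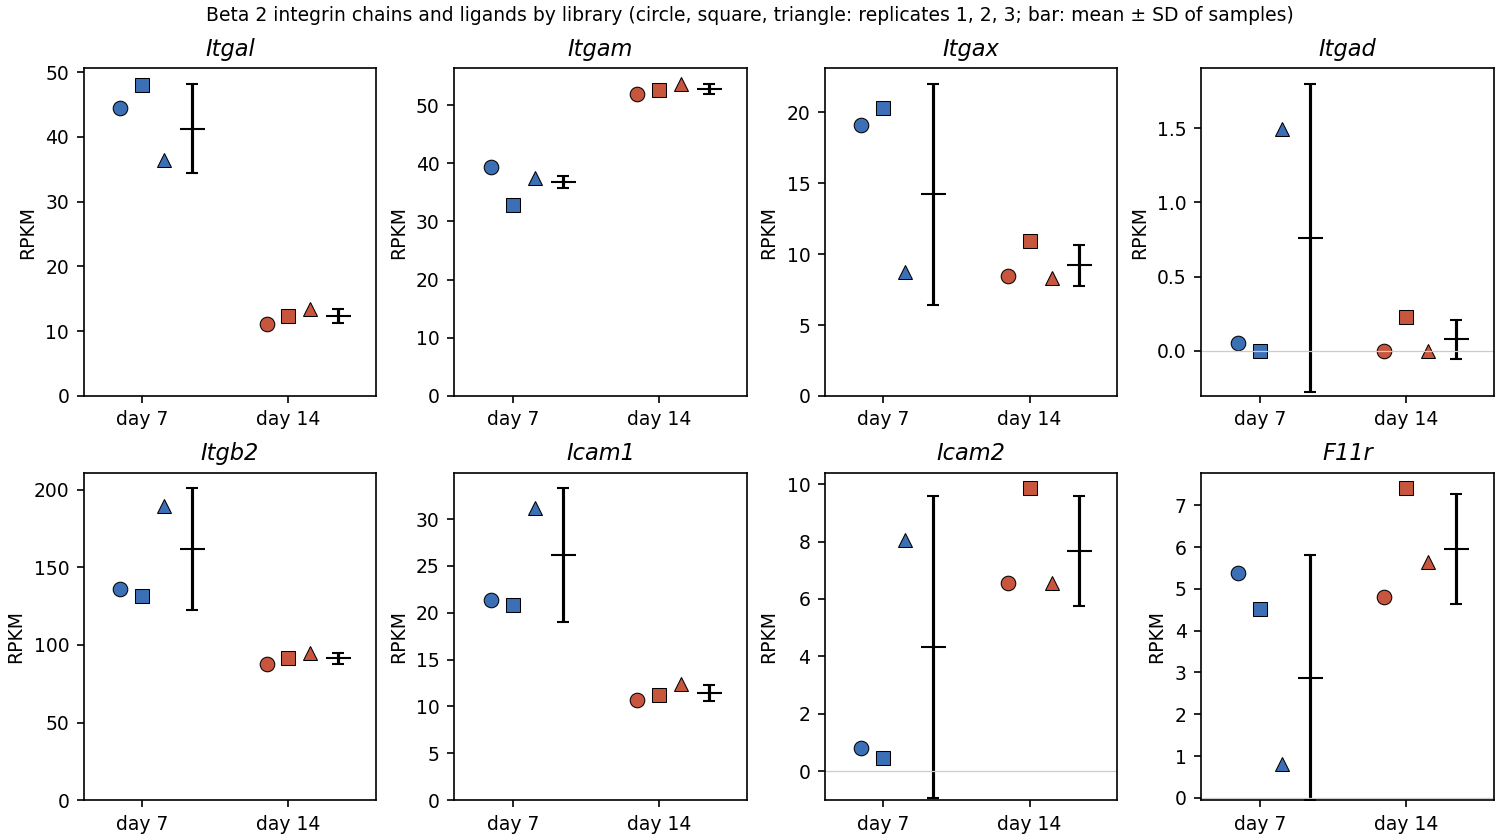
RPKM of the 8 members in each library, with day 7 in blue and day 14 in red on linear axes. Circles, squares and triangles are replicates 1, 2 and 3, and the bar beside them is the mean ± SD with replicates 1 and 2 of day 7 averaged first. Itgal, Itgb2 and Icam1 are lower and Itgam is higher in all day 14 libraries, whereas Itgax, Icam2 and F11r of day 7 replicate 3 stand apart from day 7 replicates 1 and 2.

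Itgal and Itgam took like shares of the summed alpha chain RPKM on day 7, and Itgam led in every day 14 library. These shares rest on the gene lengths in the files. The Itgam model there, of 6377 bases, runs beyond the GENCODE end, which may lower its RPKM. Itgal made up 43.1%, 47.4% and 43.3% of the summed RPKM of the alpha chains in day 7 replicates 1, 2 and 3, and 15.6%, 16.3% and 17.8% in day 14 replicates 1, 2 and 3. Itgam made up 38.2%, 32.5% and 44.6% on day 7 and 72.6%, 69.1% and 71.2% on day 14. In day 7 replicate 3 Itgam was already slightly above Itgal, and on day 14 the shares lay far apart in all 3 libraries. Averaged by day, the Itgal share was 44.3% ± 1.4 (SD, n = 2) and 16.5% ± 1.1 (SD, n = 3) and the Itgam share 39.99% ± 6.5 (SD, n = 2) and 71.0% ± 1.8 (SD, n = 3). The Itgax share was 14.9% ± 6.4 (SD, n = 2) and 12.4% ± 1.7 (SD, n = 3), which differed by less than the day 7 spread.

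**Figure D2:**
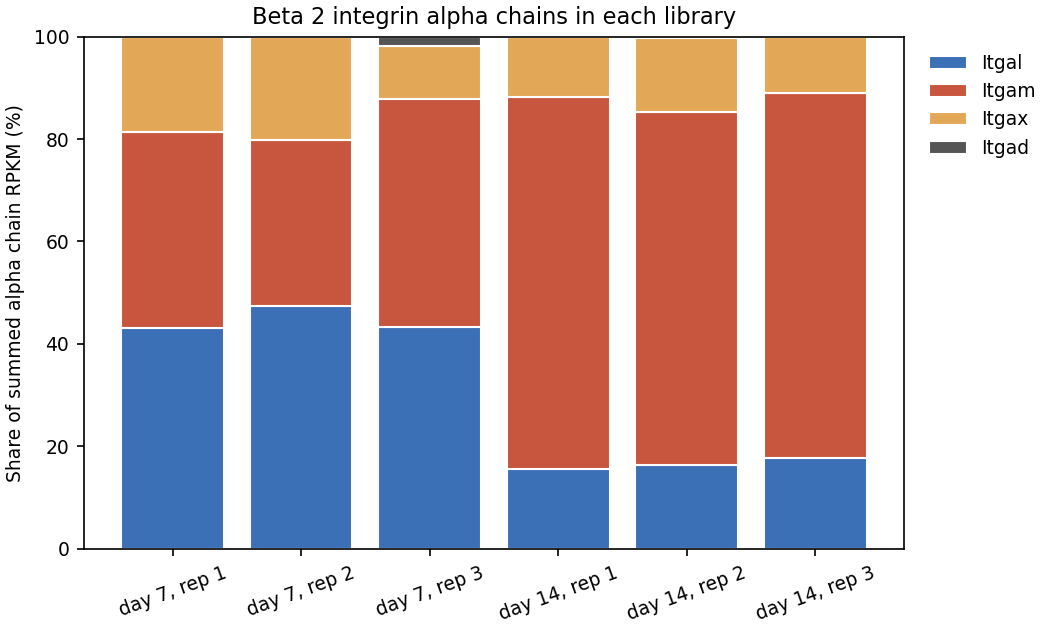
Share of each alpha chain in the summed RPKM of Itgal, Itgam, Itgax and Itgad, in percent, with 1 bar per library. Itgal in blue and Itgam in red are of similar size in the day 7 bars, and Itgam fills 69.1% to 72.6% of each day 14 bar.

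A ratio of 2 members within a library does not depend on how the library is scaled. The ratio of Itgal to Itgam was 1.13, 1.46 and 0.970 in the day 7 replicates and 0.215, 0.236 and 0.249 in the day 14 replicates. The mean log2 ratio went from 0.16 ± 0.28 (SD, n = 2) to -2.10 ± 0.11 (SD, n = 3), a difference of -2.26 or 4.78-fold. An exact permutation test (two-sided, 10 arrangements of the day labels) gave p = 0.1, the smallest that 2 against 3 samples allow, with an adjusted p of 0.125 over the 5 ratios compared. In limma across all genes with each value set relative to Itgam, Itgal changed by -2.17 (SE 0.29, adjusted p = 0.00134), an analysis chosen after the values had been seen. This divisor takes the change of Itgam (0.51) off every gene. Leaving out each library in turn kept the difference between -2.46 and -2.17.

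Set against Itgax, the change of Itgal was smaller and less certain. The ratio of Itgal to Itgax was 2.32, 2.36 and 4.18 in the day 7 replicates and 1.32, 1.14 and 1.61 in the day 14 replicates. The libraries of the days did not overlap, and the mean log2 ratio differed by -1.22 (exact permutation p = 0.1), or by -0.80 without day 7 replicate 3. In limma relative to Itgax the change of Itgal was -1.18 with a 95% interval of -2.52 to 0.16 (adjusted p = 0.545). Here the change of Itgax (-0.48) is taken off every gene. In these added limma fits the contrast with Itgal passed the threshold for Itgam and not for Itgax, while the planned exact permutation test gave p = 0.1 for both.

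Per transcript of the common beta chain, Itgam rose. Itgam reached 0.289, 0.249 and 0.198 of the Itgb2 level on day 7 and 0.592, 0.573 and 0.566 on day 14, and no day 14 library came near the day 7 range. Relative to Itgb2 it changed by 1.30 on the log2 scale (SE 0.30, adjusted p = 0.00445 in limma), again by a fit chosen after the values had been seen. Dividing by Itgb2 takes its change (-0.80) off every gene. All genes thus move up, and this adjusted p does not set Itgam apart from them. The planned exact permutation test gave p = 0.1 for Itgam and for Itgal relative to Itgb2 (adjusted p = 0.125). Itgal stood at 0.326, 0.364 and 0.192 of Itgb2 on day 7 and at 0.127, 0.135 and 0.141 on day 14, with a log2 change of -0.86 that missed the threshold (adjusted p = 0.0583). For Itgax the ratios to Itgb2 were 0.14, 0.154 and 0.046 on day 7 and 0.0962, 0.119 and 0.0875 on day 14 (log2 change 0.31, adjusted p = 0.563), and leaving out day 7 replicate 3 turned its permutation difference from 0.28 to -0.56. The 4 alpha chains summed to 0.755, 0.768 and 0.444 of the Itgb2 level on day 7 and to 0.816, 0.83 and 0.795 on day 14, so day 7 replicate 3 had more Itgb2 per alpha chain transcript than any other library.

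**Figure D3:**
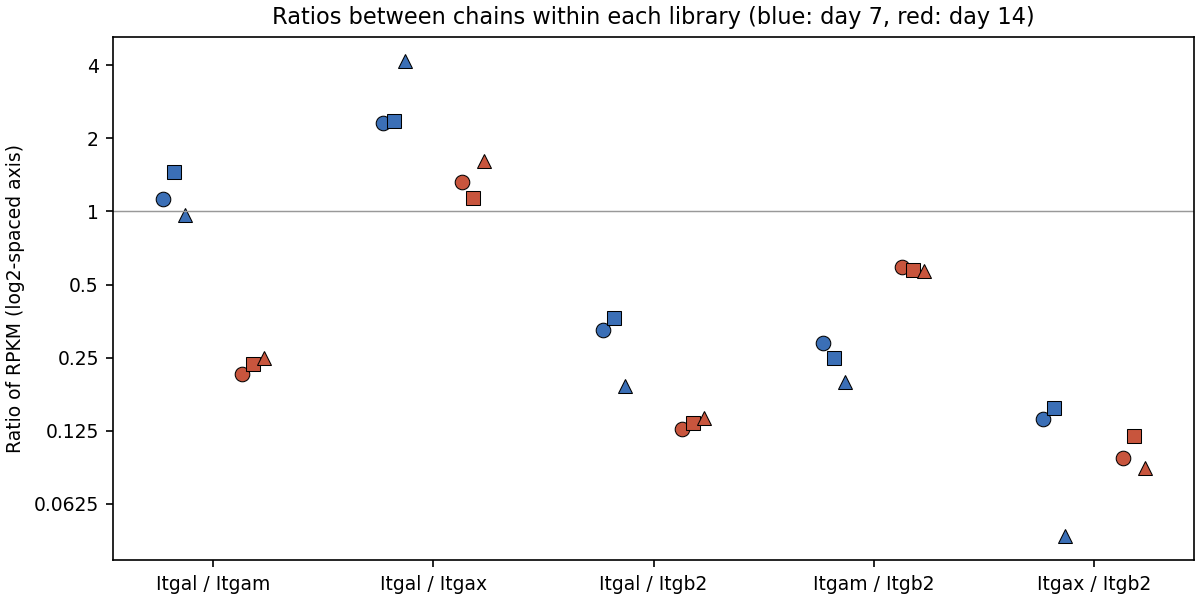
Ratio of RPKM between pairs of chains in each library, on a log2-spaced axis, with day 7 in blue, day 14 in red and circles, squares and triangles for replicates 1, 2 and 3. Itgal to Itgam drops from 0.970 to 1.46 down to 0.215 to 0.249, Itgam to Itgb2 is higher in all day 14 libraries, and the day 14 libraries of Itgax to Itgb2 lie within the day 7 range.

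The members were also set against T cell genes in place of all reads. A sum over 12 T cell genes came to 419 and 425 RPKM for the early samples and to 111, 108 and 124 RPKM for the later ones. Relative to these genes Itgal changed by 0.23 with a 95% interval of -0.59 to 1.04, which includes 0. On this scale Itgb2 was at 1.09 (interval 0.58 to 1.61), Icam1 at 0.78 (-0.091 to 1.66), Itgax at 1.40 (0.43 to 2.38) and Itgam at 2.39 (1.72 to 3.07). The divisor itself moves all genes up, to a median of 2.04 over all tested genes, so the change of sign of Itgal, Itgb2, Icam1 and Itgax comes with the scaling. Of the 5 members Itgam alone lay above that median, as it did above the median of 0.16 without the divisor. When libraries were scaled by the median of ratios, the median of all genes went from 0.16 to -0.015, and the changes were -1.84 for Itgal, -0.98 for Itgb2, -1.28 for Icam1, -0.66 for Itgax and 0.32 for Itgam, with calls for Itgal and Itgb2 alone.

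**Figure D4:**
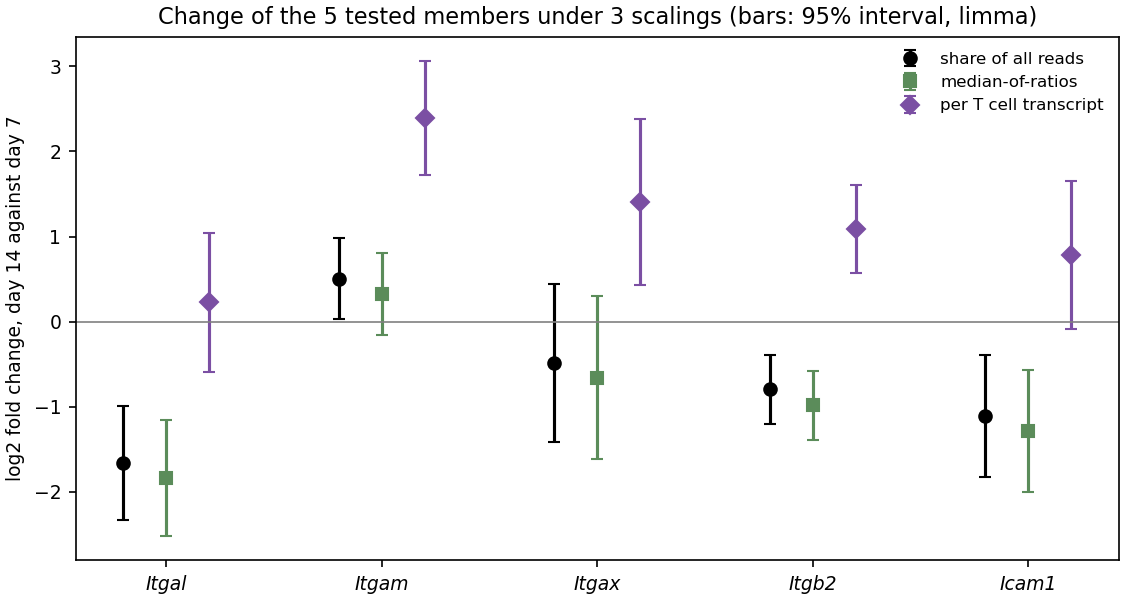
Log2 fold change of day 14 against day 7 for the 5 tested members, with 95% intervals from limma, as a share of all reads (black), after median-of-ratios scaling (green) and per T cell transcript (purple). Itgal lies at -1.66, -1.84 and 0.23, and Itgam lies above 0 under all 3 scalings, where the medians of all genes are 0.16, -0.015 and 2.04.

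Markers of the cells that carry these chains moved beside them. Against 2.68% lower and 2.62% higher among all tested genes, 6 of 13 tested T cell genes fell and none rose (median log2 change -1.52), among them Cd8b1 from 135 ± 18 to 34.3 ± 4.4 RPKM and Lck from 60.0 ± 10.0 to 11.9 ± 2.2 (SD, n = 2 and n = 3). Of 10 tested macrophage genes 5 rose and none fell (median 0.94). Among the 5 were C1qa, a complement chain, from 16.1 ± 5.2 to 51.0 ± 3.8 RPKM and Csf1r, the growth factor receptor of macrophages, from 6.06 ± 2.6 to 19.3 ± 0.67. Not all macrophage genes went this way. Means were lower on day 14 for Adgre1 (23.9 and then 19.6 RPKM), Fcgr1 (25.1 and 16.6) and C1qc, another C1q chain (18.7 and 17.0). Ms4a7, which was not tested, went from 3.30 to 1.44 RPKM. Without day 7 replicate 3, 2 of these 6 T cell calls and 1 of these 5 macrophage calls remained. Natural killer genes, whose cells carry both LFA-1 and Mac-1, fell in 3 of 4 tested. The listed genes summed to 123 to 160 RPKM on day 7 and 15.6 to 18.1 on day 14. Of the 3 called, Klre1 was no longer called without day 7 replicate 3, where it changed by -1.88. Klra8 and Klra9 then missed the filter and were not tested. Neutrophil genes summed to 12.7 to 17.4 and 50.7 to 66.3 RPKM, and S100a9 alone made 36.6 to 49.2 RPKM of the later sum. Of the 10 neutrophil genes 7 were at 0 on all of day 7, and Ly6g had reads in only 1 day 14 library, at 0.186 RPKM. The part of these cells in the Itgal and Itgam values was not tested.

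Icam1, the inducible ligand, was lower in all day 14 libraries without reaching the threshold. It was at 21.4, 20.9 and 31.2 RPKM on day 7 and at 10.7, 11.2 and 12.4 on day 14. The days did not overlap, and day 7 replicate 3 was again the highest. The mean was 26.2 ± 7.1 (SD, n = 2) and 11.4 ± 0.87 (SD, n = 3), and the log2 change was -1.10 (SE 0.32), at an adjusted p of 0.081 in limma. It was called without precision weights (adjusted p = 0.0259), with 6 libraries counted singly (adjusted p = 0.0103) and in limma-voom (adjusted p = 0.00782). These settings called 1011, 1591 and 2145 genes in all, against 354 in the main test. Leaving out day 7 replicate 3 brought the log2 change of Icam1 to -0.83. Its ratio to Itgb2 was 0.157, 0.159 and 0.165 on day 7 and 0.122, 0.122 and 0.131 on day 14.

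Icam2 and F11r were low, fell under the filter and split day 7 in opposite ways. Icam2 had 0.791, 0.451 and 8.05 RPKM in the day 7 replicates, from 12, 8 and 100 reads, and 6.55, 9.87 and 6.55 in the day 14 replicates. F11r had 5.37, 4.52 and 0.806 RPKM in the day 7 replicates, from 114, 112 and 14 reads, and 4.82, 7.41 and 5.64 in the day 14 replicates. Day 7 replicate 3 thus resembled day 14 in Icam2, and replicates 1 and 2 did so in F11r, and the days overlapped for both genes. With the filter lowered to 1 RPKM in 2 samples, the log2 change was 1.15 for Icam2 (95% interval -0.62 to 2.93, limma adjusted p = 0.428) and 1.07 for F11r (-0.42 to 2.56, adjusted p = 0.388), where 1.08% of genes were called. Endothelial markers summed to 11.8 to 17.1 RPKM on day 7 and 15.3 to 19.1 on day 14, with no marker at 0 on a whole day. Eng alone made 4.32 to 9.61 and then 9.54 to 12.4 RPKM of these sums. Cdh5 had no more than 1.07 RPKM in any library, Tek 0.130, Tie1 0.125 and Emcn 0.0589. The part of endothelial cells in the Icam2 values was not tested.

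Ordered by level per length, Itgb2 led on both days. The order rests on the gene lengths in the files, with the long Itgam model among them. On day 7 Itgal at 41.3 and Itgam at 36.8 RPKM came next and did not differ beyond their spread, followed by Icam1 at 26.2 and Itgax at 14.2, whose SDs overlap. Icam2, F11r and Itgad, at 4.34 ± 5.3, 2.87 ± 2.9 and 0.762 ± 1.0 (SD, n = 2), could not be ordered. On day 14 Itgam at 52.7 was second, and Itgal at 12.3 and Icam1 at 11.4 were neighbours within their spread. Itgax at 9.21, Icam2 at 7.66 ± 1.9 and F11r at 5.96 ± 1.3 (SD, n = 3) followed, each within the spread of its neighbour. Itgad was last on day 14 and had the lowest mean on day 7, where in replicate 3 it lay above F11r.

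Other ligands of beta 2 integrins gave 2 tested genes of 12, with 1 lower and none higher (median log2 change -0.51, against 0.16 for all tested genes). Of all tested genes 2.68% were lower and 2.62% higher. Thy1, a ligand of Mac-1 that T cells carry, fell. It stood at 58.9, 51.6 and 55.3 RPKM in the day 7 replicates and had a mean of 23.1 ± 2.4 (SD, n = 3) on day 14. The log2 change was -1.23 (limma adjusted p = 0.0306), and it was also -1.23 without day 7 replicate 3, at an adjusted p of 0.158. The complement gene C3, whose cleaved product binds Mac-1 and CD11c, gave no call at 38.8 ± 4.9 and 44.8 ± 1.7 RPKM. Icam4 had no reads in any library and Icam5 at most 0.536 RPKM. Fibrinogen is a ligand of Mac-1, and the genes of its chains were under the filter. The alpha gene Fga was at 10.5, 8.42 and 14.9 RPKM on day 7 and at 0.817, 0.264 and 0 on day 14. The gamma gene Fgg was at 7.67, 5.54 and 4.98 and then 0.252, 0.456 and 0.215. The beta gene Fgb split day 7 at 6.59, 7.10 and 0.0805, and had at most 0.0922 on day 14. Vcam1, Jam2 and Ager of the list, also untested, were higher in every day 14 library, with at most 2.18, 0.359 and 1.31 RPKM. Itgb2l, a close relative of Itgb2, had reads in 1 library at 0.102 RPKM. Itgae, the CD103 chain that pairs with another beta chain, was at 4.23 ± 0.78 (SD, n = 2) and 1.73 ± 0.59 RPKM (SD, n = 3) and was not tested.

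The proteins that switch beta 2 integrins to their binding state gave no call among 14 tested of 18 listed genes, with a median log2 change of -0.43, where 5.29% of all tested genes were called. Without day 7 replicate 3, Rassf5, a Rap1 effector named here after its values were seen, was called (-1.97, adjusted p = 0.0461) among 135 genes in all. Rap1b, the small GTPase that recruits talin, was at 111 ± 54 RPKM (SD, n = 2) and 85.1 ± 6.7 (SD, n = 3), with a log2 change of -0.29 (limma adjusted p = 0.58). Its day 7 replicates were split at 150, 148 and 72.6 RPKM, and the change was -0.80 without replicate 3 (adjusted p = 0.181). Tln1, which encodes talin, the protein that pulls the beta chain open, stood at 58.2 ± 1.4 and 54.5 ± 2.2 RPKM with a log2 change of -0.09 (adjusted p = 0.85). Among 13 tested of 15 genes of signalling and cytoskeleton behind the integrin, 1 fell and none rose (median -0.38). This was Coro1a, an actin regulator of leukocytes, at 63.3 ± 13 and 24.9 ± 1.6 RPKM, with a log2 change of -1.30 and an adjusted p of 0.0149 in limma (0.16 without day 7 replicate 3).

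Of 9 tested transcription factors known at these loci 2 fell and none rose (median -0.42), where 2.68% of all tested genes fell and 2.62% rose. Irf1, which interferon gamma induces, fell, with means of 62.5 ± 4.3 RPKM (SD, n = 2) and 26.5 ± 0.41 (SD, n = 3). Its limma adjusted p was 0.0123. Without day 7 replicate 3 this became 0.0781. Neither of the 2 calls remained without that library. Spi1, which encodes PU.1, was not called (adjusted p = 0.634), with 12.03 ± 4.2 RPKM on day 7 and 14.9 ± 0.48 on day 14. Stat5a and Stat5b of the IL-2 pathway gave none either, with log2 changes of -0.42 and 0.02. The value of Stat5b rests on day 7 replicate 3, and it was 0.48 without that library (adjusted p = 0.728).

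The genes most like each chain were searched among 6333 tested genes by the root mean square difference of centred log2(RPKM + 1) over the 5 samples, a description without a test. Nearest to Itgal were Zfp523 at 0.072, Tagap at 0.0852, Def6 at 0.0979 and Atp2a3 at 0.103. Nearest to Itgam were Ccdc47 at 0.0194, Ppfibp1 at 0.0311, Ghitm at 0.0329, Ptpa at 0.0341 and Tmpo at 0.0345. Itgb2 had Zbtb11 at 0.0438, Zfp335, Snhg12, Pdcd4 and Pla2g6, and Itgax had Irak1 at 0.042, Sidt2, Tpm3-rs7, Rilpl2 and Arfgef1. The distances for Itgal were larger than those for Itgam.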

How the data were processed

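RNA of CD8a bead-selected cells from B16 tumours was measured in 6 libraries, made from poly-A RNA with a stranded kit and labelled UID-mRNA-seq, per the labels' protocols. The authors deposited RPKM with gene lengths, per the file headers, made with Trimmomatic 0.36 and featureCounts of Subread 1.5.1 on GRCm38, per the submitters' processing notes. The sources used here name no aligner, strand setting or handling of duplicate molecules. Value times length gave whole reads (largest deviation 4.1e-05) summing to 6523019 to 13316522 per library, from which CPM were computed.

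limma 3.58.1 in R 4.3.3 was fitted to log2(RPKM + 1) of the 6691 genes that averaged at least 20 CPM. Precision weights came from the variance fitted by loess against the mean within each day (span 0.3, floor 0.005), read at the mean of both days, because reading them at each day's mean gave more false calls on simulated data, a choice made with the members' p-values on view. Calls have a Benjamini-Hochberg adjusted p under 0.05. A fold change on the log2(RPKM + 1) scale understates changes of low genes. The averaging of day 7 replicates 1 and 2, the filter and the form of the weights follow an earlier analysis of these data, and the members and gene lists were chosen with its results known. Named genes are the 8 members, called list members (up to 4, or the 2 most abundant tested members of a list without calls) and the 5 nearest patterns of each of 4 chains. Other list and marker genes were named after their values were seen. Some genes that the rule names are not reported here. The main test is the one planned for RPKM. Recovered reads were tested with limma-voom as an alternative, and edgeR and DESeq2 were not run.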

Additional observations from a re-analysis of the deposited data

How the results depend on the processing

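Against 354 called genes, the count was 147 with a filter of 1 RPKM in 2 samples, 104 without a filter, 1011 without precision weights, 2145 by limma-voom on recovered reads, 6312 per T cell transcript, 1591 with 6 libraries counted singly and 1162 when these 6 also had the replicate block. Leaving out 1 library gave 135 to 340, with 135 without day 7 replicate 3, where the lone day 7 sample was assumed to vary as day 7 did with that library, and 227 without day 14 replicate 1. Itgal kept a negative change in 17 of 18 settings (-1.84 to -1.41) and Itgb2 in 17 of 18 (-0.98 to -0.55). With the 1 RPKM filter and without a filter the adjusted p was 0.0534 and 0.0959 for Itgal and 0.101 and 0.111 for Itgb2. Per T cell transcript, which moves the median of all genes to 2.04, the value was 0.23 for Itgal, 1.09 for Itgb2, 0.78 for Icam1 and 1.40 for Itgax. Among ratios, limma gave -2.17 for Itgal to Itgam and 1.30 for Itgam to Itgb2, both past the threshold that the permutation test cannot reach. The change of the divisor is taken off every gene in these fits. Without each library in turn Itgax to Itgb2 ranged from -0.56 to 0.38. Equal replicate numbers gave correlations of deviations of -0.019, -0.013 and -0.036, and unequal ones -0.025 to 0.046. Since replicates 1 and 2 of day 7 were close to sampling noise from each other, these values cannot settle whether samples were paired. With 6 libraries counted singly, Itgam (0.52) and Icam1 (-1.01) passed the threshold at adjusted p = 0.0192 and 0.0103. The replicate block on these 6 libraries raised this to 0.0464 and 0.0251 and changed no member's call, and the ratio of Itgal to Itgam differed by -2.33 in both. Low genes such as Icam2, F11r and Itgad rest on 0 to 248 reads, and a value of 0 sets no limit here, since reads are not single molecules.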

Other observations

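The Src-family kinases that act behind Mac-1 in myeloid cells included Fgr and Src, both low on day 7. Fgr was at 2.14, 2.11 and 0.833 RPKM in day 7 replicates 1, 2 and 3 and at 6.05, 5.36 and 5.13 in the day 14 replicates. Src was at 0.459, 0.368 and 1.09 RPKM and then at 5.85, 6.28 and 6.94. Both lay higher in every day 14 library, but the days also did not overlap in 49.3% of all tested genes, and neither gene passed the filter on low values, so they were not tested. Fyn, the family member of lymphocytes, was at 35.4, 29.0 and 44.6 RPKM and then at 25.9, 27.6 and 25.3 and gave no call (limma adjusted p = 0.287). Itgad, at 44 reads in day 7 replicate 3 and 0 to 13 in the other libraries, shares sequence with Itgax, which was lowest of day 7 in that library. A link between these values was not tested.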
